A study of Homo sapiens with 12 samples.

Results

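The genes described here set, maintain and remove DNA methylation, and were followed in 2 Ewing sarcoma cell lines given mithramycin or solvent. They are the methylcytosine dioxygenases TET1, TET2 and TET3, the DNA methyltransferases DNMT1, DNMT3A and DNMT3B, the glycosylases TDG and MBD4, and the maintenance cofactor UHRF1. Every probe set whose platform annotation gave 1 of these 9 symbols alone was taken, which gave 20 of the 54675 probe sets on the array. TET1 had 2 sets, TET2, TET3 and DNMT3A had 3 each, DNMT1, DNMT3B and UHRF1 had 1 each, TDG had 2 and MBD4 had 4. The group was chosen by its function and on 1 measured result, the difference of TET1 between mithramycin and control in TC32, which is among the deepest on the array. Values of mithramycin against control in TC32 are therefore a description without a test, and so is the difference between the responses of the lines, which contains them.

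TC32 and TC71 are established human lines of Ewing sarcoma, a tumour driven by the fusion protein EWSR1-FLI1. The 4 groups were TC32 with control solvent, TC32 with mithramycin, TC71 with control solvent and TC71 with mithramycin, with 3 biological replicates and 1 array each. The antibiotic mithramycin, which attaches to GC-rich stretches of DNA, was given at 100 nM, and exposure lasted 6 h in every group. The data therefore hold 1 dose and 1 time, and RNA came from whole cultures, so that fewer cells with a transcript and less transcript per cell cannot be told apart.

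DNA methylation places a methyl group on cytosine, mostly in CpG dinucleotides. DNMT3A and DNMT3B add it to unmethylated DNA, while DNMT1 copies it to the new strand after replication with the help of UHRF1, which recognizes a site methylated on the old strand alone. TET enzymes oxidize methylated cytosine, TDG cuts out some of the oxidized bases, and base excision repair fills the gap. MBD4 removes the mismatched thymine that arises when methylated cytosine is deaminated.

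Values are log2 signals after RMA, and differences are on that log2 scale with the standard error of the model (limma). Array medians ran from 4.38 to 4.47, and the lowest correlation over the probe sets between arrays of a group was 0.9948, in treated TC32. The interquartile range of an array ran from 3.07, in treated TC32, to 3.42, in TC71 controls. In each line every treated array had a narrower range than every control. All 9 of 9 measured Ewing sarcoma markers lay above the array median on every array, while 4 of 4 blood and 4 of 4 epithelial markers lay below it throughout. GLI1 lay close to that median in TC32 controls, at a mean of 4.53. Of 4 endothelial markers 3 lay below it on every array, PECAM1 running from 3.61 to 5.29, and of 4 fibroblast markers 2 lay above it on every array and 0 below, with COL3A1 between 9.38 and 11.6. RNA integrity was read from beta-actin, as the signal of its 3' set less that of its 5' set, which was 0.71 ± 0.04 in TC32 controls, 0.60 ± 0.08 with mithramycin, 1.45 ± 0.48 in TC71 controls and 0.88 ± 0.10 with mithramycin (SD, n = 3), and TC71 control replicate 1 stood apart at 2.0. Counts without that array stand beside the TC71 and line comparisons. Of the 9 Ewing sarcoma markers 4 fell in TC71, where 15.3% of all genes were called lower at their brightest set.

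Promoters of 4 of the genes are shown because mithramycin binds GC-rich DNA. TET1, TET3 and UHRF1 differed downward by at least 0.7 at the brightest set in each line, and MBD4 was the gene with rises. The RefSeq sequences (GRCh38.p14) run from 250 bases before to 50 after an annotated start and are given 5′ to 3′ on the gene's strand for the first start listed. The windows are chr10:68560087-68560386 on the plus strand for TET1, chr2:73984660-73984959 on the plus strand for TET3, chr19:4909251-4909550 on the plus strand for UHRF1 and chr3:129439899-129440198 on the minus strand for MBD4. Capitals mark GGGCGG or its complement CCGCCC, the GC box that Sp transcription factors bind.
TET1: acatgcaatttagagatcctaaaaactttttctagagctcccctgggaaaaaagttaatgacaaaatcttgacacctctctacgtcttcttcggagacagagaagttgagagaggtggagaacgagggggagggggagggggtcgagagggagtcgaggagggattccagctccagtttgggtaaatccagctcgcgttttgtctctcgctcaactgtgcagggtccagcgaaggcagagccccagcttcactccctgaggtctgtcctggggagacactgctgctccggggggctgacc
TET3: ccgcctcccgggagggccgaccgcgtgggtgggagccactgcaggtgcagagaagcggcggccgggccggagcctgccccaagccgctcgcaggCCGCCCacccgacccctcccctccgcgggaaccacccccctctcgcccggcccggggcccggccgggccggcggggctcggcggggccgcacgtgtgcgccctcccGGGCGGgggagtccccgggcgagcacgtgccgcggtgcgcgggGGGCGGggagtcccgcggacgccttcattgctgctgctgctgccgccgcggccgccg
UHRF1: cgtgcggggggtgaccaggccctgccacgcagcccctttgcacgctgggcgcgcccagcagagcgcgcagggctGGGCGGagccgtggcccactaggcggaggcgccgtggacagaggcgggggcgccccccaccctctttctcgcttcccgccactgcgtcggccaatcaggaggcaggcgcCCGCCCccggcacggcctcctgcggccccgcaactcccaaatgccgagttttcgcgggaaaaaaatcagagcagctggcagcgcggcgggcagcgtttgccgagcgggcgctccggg
MBD4: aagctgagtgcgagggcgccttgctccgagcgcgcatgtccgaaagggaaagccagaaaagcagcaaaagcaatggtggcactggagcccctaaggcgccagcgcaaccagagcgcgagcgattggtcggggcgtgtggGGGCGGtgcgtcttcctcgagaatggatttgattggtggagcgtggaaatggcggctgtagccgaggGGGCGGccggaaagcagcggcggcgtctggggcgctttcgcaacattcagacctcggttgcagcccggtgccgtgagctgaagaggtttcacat

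The TET1 window held 0 GC boxes at a GC content of 54.3%, and the other 2 annotated TET1 starts also held 0. TET3 had 3 in a window of 82.7% GC, a content above that of 99.1% of all windows, and UHRF1 had 2 at 74% GC. MBD4, whose sets were all higher with the drug in TC71 but not all in TC32, had 2 at 63% GC. All 9 genes had entries, with 20 windows in all, of which 12 held a GC box, against 45% of the 35114 windows of the same length in the table. Windows of a gene are not independent. By gene, 5 of the 9 had a GC box in at least 1 window, a count for which no matching share over all genes was computed. The windows of TDG, DNMT1 and DNMT3B held 0. A match describes the letters of the window and not a bound site, and the arrays do not tell which start was used. The genes whose promoters are printed were picked by the direction and size of their differences in each line. Whether GC content or GC boxes went with the response to mithramycin was not tested.

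The TET dioxygenases were lower with mithramycin in each line at the brightest set of each gene, most deeply for TET1 and TET3. At the brightest TET1 set (228906_at) the TC32 controls read 6.85, 7.03 and 6.98, and the mithramycin arrays read 3.88, 3.92 and 4.02. The groups lay far apart, and the TC32 mithramycin arrays were below the array medians, so that the size of the difference is rough. It came to -3.01 ± 0.08, or 8.06-fold, which was the 11th lowest of the 54613 probe sets tested. The sets next to it in that order were those of NCKAP5 at -3.15 and BCL11B at -3.09 on the deeper side and ARID1B at -3.01 and ATXN1 at -3.00 on the other.

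In TC71, whose values the rule for choosing the genes did not name, the same TET1 set read 7.29, 7.27 and 7.31 in controls and 5.70, 5.59 and 5.43 with mithramycin. The groups did not overlap. TET1 fell by 1.72 ± 0.08 (3.29-fold, n = 3 per group, limma adjusted p = 7.70e-09), and all 3 treated arrays were below every control. The TC71 difference was shallower than that of TC32 by 1.29 ± 0.11, a gap that was not tested. Over the 4 groups this TET1 set was lowest in treated TC32, then treated TC71, then TC32 controls, and highest in TC71 controls. No neighbours overlapped.

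The second TET1 set (214862_x_at), of a type that can also detect related sequences, moved far less. It read 5.49, 5.56 and 5.34 in TC32 controls against 4.70, 5.02 and 4.99 with mithramycin, a difference of -0.56 ± 0.10. In TC71 it read 6.52, 6.71 and 6.48 in controls and 6.20, 6.20 and 6.43 with mithramycin. Treated TC71 thus lay above TC32 controls at this set, unlike at the brightest set. The groups did not overlap in either line, and in TC71 the set was called lower by 0.30 ± 0.10 (limma adjusted p = 0.0482, from 0.0266 to 0.238 over the alternatives). That call ended on leaving out single arrays, in 8 of 12 cases, without TC32 mithramycin replicate 3, TC32 control replicate 1 or 2, TC71 mithramycin replicate 1 or 2, or any TC71 control. It also ended with the replicate block (adjusted p = 0.0744), quantile normalization again (0.167), housekeeping centring (0.062), hybridization control centring (0.238) and the beta-actin term (0.192). With both sets averaged TET1 fell by 1.01 in TC71, and its adjusted p ran from 1.55e-12 to 8.53e-05 over all the alternatives.

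**Figure D1:**
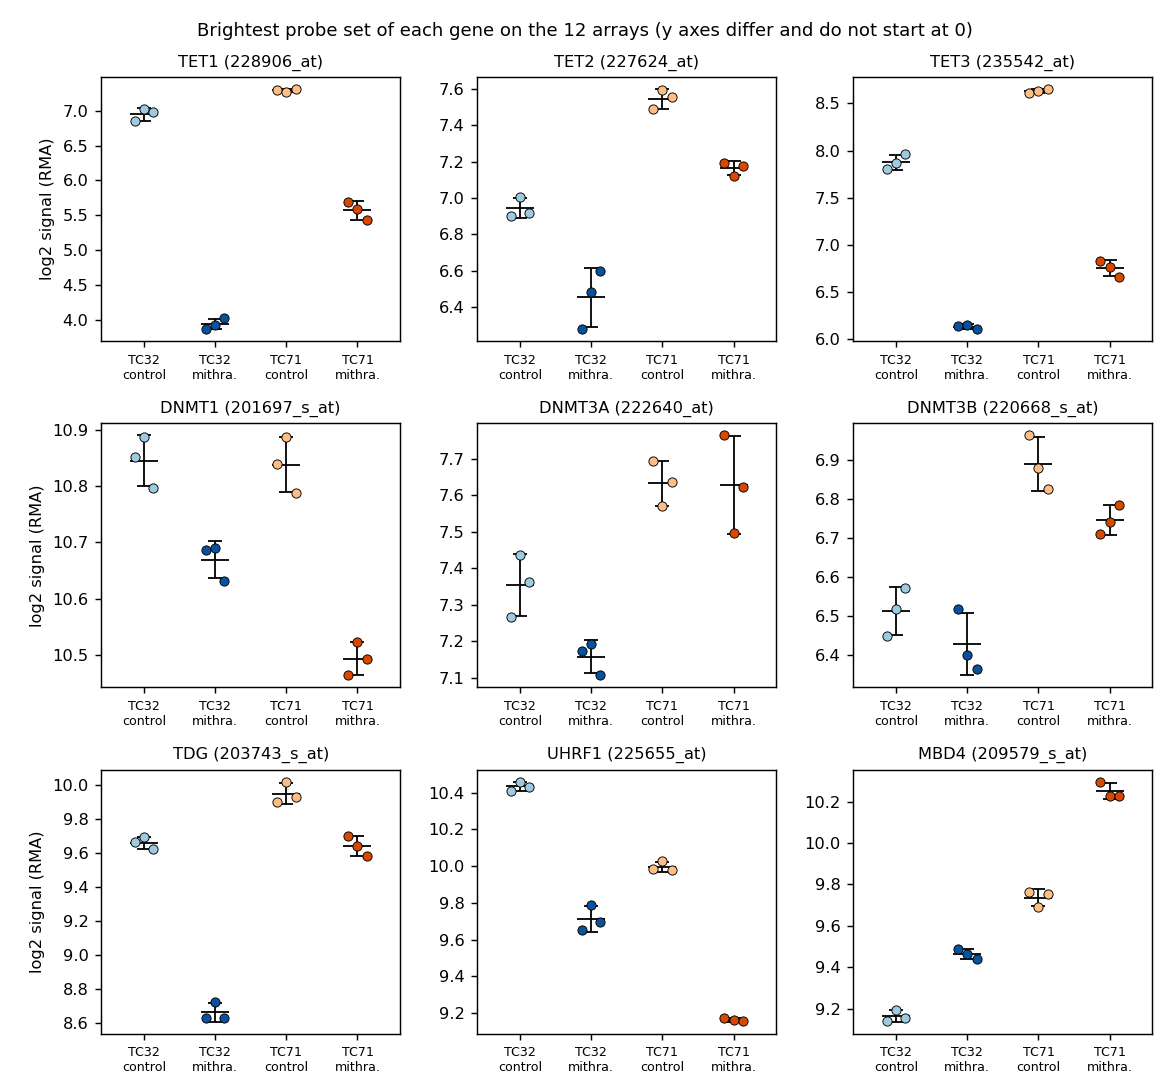
Log2 signal (y axis) on the 12 arrays for the brightest probe set of each of the 9 genes, with 1 point per array, the group mean as a long bar and the SD as whiskers (n = 3); y axes differ between panels. Treated TC32 lies at 3.88 to 4.02 for TET1 against 6.85 to 7.03 in its controls, and MBD4 is the panel in which the treated arrays of each line lie above their controls.

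TET3 fell as deeply in TC71 as any gene of the group. Its brightest set (235542_at) read 8.61, 8.63 and 8.65 in TC71 controls and 6.83, 6.76 and 6.66 with mithramycin, which did not overlap. It fell by 1.88 ± 0.07 (3.69-fold, limma adjusted p = 9.62e-10). In TC32 the controls read 7.80, 7.87 and 7.96 and the treated arrays 6.14, 6.15 and 6.10, a difference of -1.75 ± 0.07. The 2 lines thus differed by -0.14 ± 0.09 in their response at this set, a gap that was not tested. The order of its levels was the same as at the brightest TET1 set, from treated TC32 up to TC71 controls, and no neighbours overlapped.

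The dimmer sets of TET3 gave smaller values. Set 214754_at fell by 0.74 ± 0.13 in TC71 (adjusted p = 6.04e-04), from 5.17, 5.18 and 5.42 to 4.38, 4.40 and 4.76. In TC32 it differed by -0.72 ± 0.13, and its treated arrays there lay below the array medians. Set 1554641_a_at was near the array medians in every group, between 4.10 and 4.47, and showed 0.11 ± 0.09 in TC32 and -0.0004 ± 0.09 in TC71 (adjusted p = 0.998).

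TET2 differed by less. Its brightest set (227624_at) read 7.49, 7.59 and 7.56 in TC71 controls and 7.19, 7.12 and 7.18 with mithramycin, which did not overlap, and fell by 0.38 ± 0.08 (1.30-fold, adjusted p = 2.77e-03). In TC32 it went from 6.90, 7.01 and 6.92 to 6.28, 6.48 and 6.60, a difference of -0.49 ± 0.08. The other sets, with signals between 4.46 and 5.86, were called lower in TC71 by 0.38 ± 0.10 (1569385_s_at, adjusted p = 0.0144) and 0.39 ± 0.08 (235461_at, adjusted p = 3.09e-03), but in TC32 they stood at -0.02 ± 0.10 and 0.08 ± 0.08 with overlapping groups. The call at 1569385_s_at ended without TC71 control replicate 3 (-0.29, adjusted p = 0.0696, range over the alternatives 0.00741 to 0.0733). All 3 TET2 calls ended when arrays were centred on hybridization controls, with adjusted p from 0.0539 to 0.0733.

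**Figure D2:**
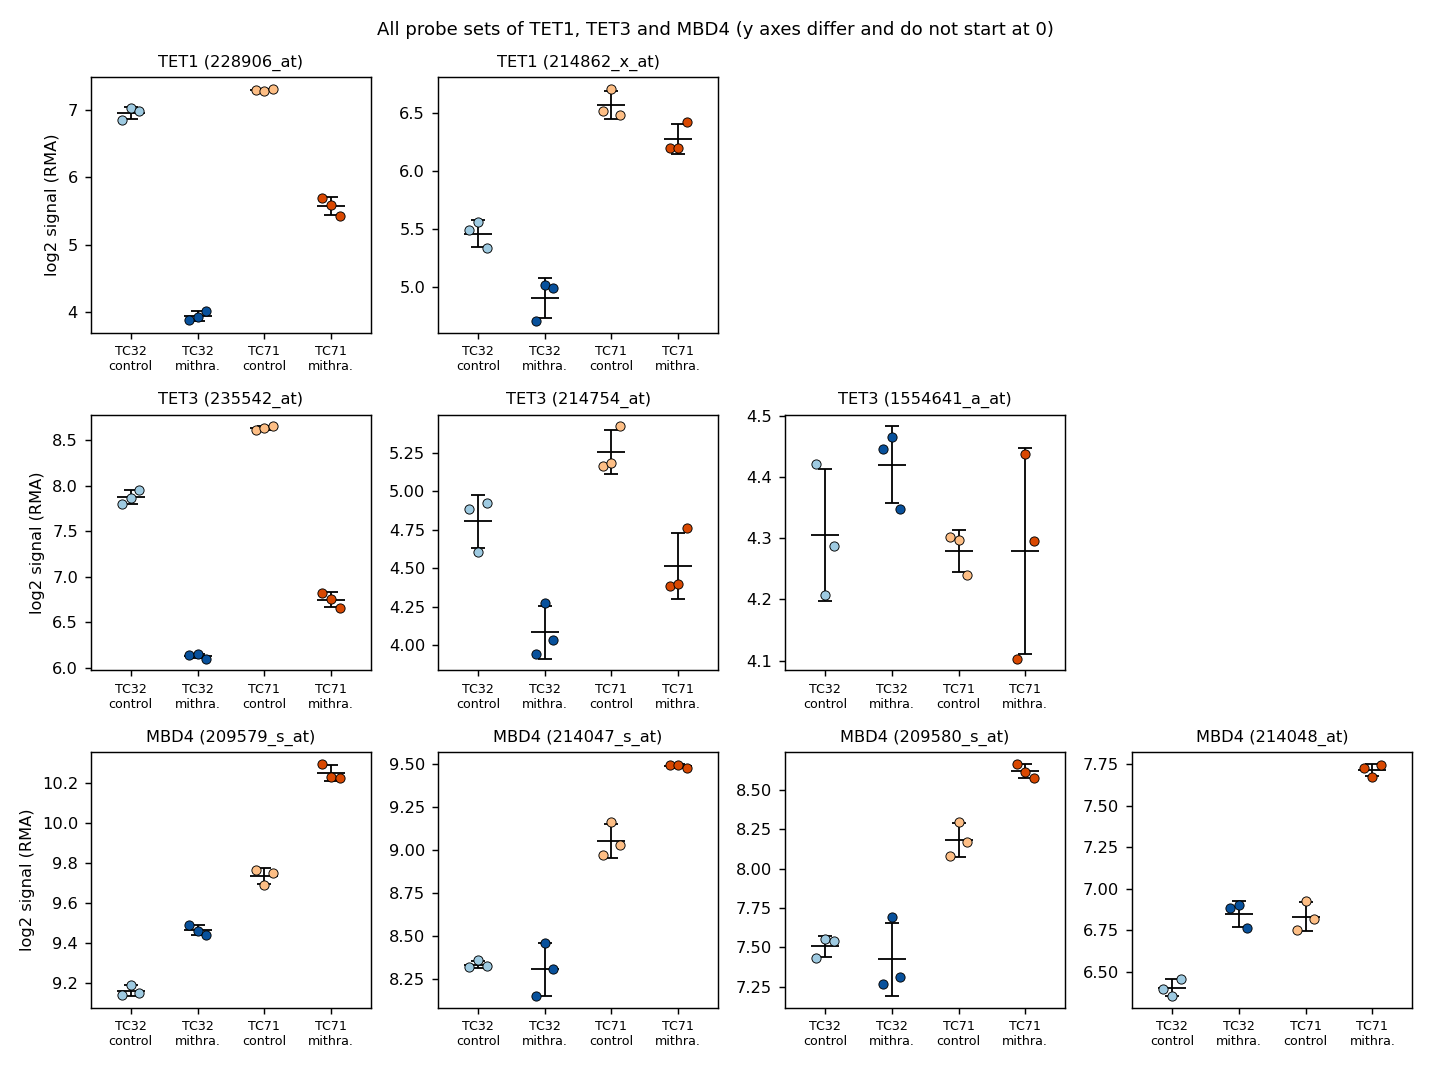
Log2 signal (y axis) on the 12 arrays for each probe set of TET1, TET3 and MBD4, with points, mean and SD (n = 3) drawn as 1 panel per set; y axes differ. Both TET1 sets and 2 of the 3 TET3 sets fall in TC71, to unequal depths, while 1554641_a_at stays between 4.10 and 4.47 in all groups. The MBD4 sets all rise in TC71, while 2 of the 4 overlap between the TC32 groups.

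The maintenance pair did not move equally. UHRF1, measured by 1 set (225655_at), read 9.98, 10.03 and 9.98 in TC71 controls and 9.18, 9.16 and 9.16 with mithramycin, and fell by 0.83 ± 0.06 (1.78-fold, limma adjusted p = 3.10e-07). In TC32 it went from 10.41, 10.46 and 10.43 to 9.65, 9.79 and 9.70, a difference of -0.72 ± 0.06. In neither line did the groups overlap. DNMT1 (201697_s_at) read 10.84, 10.89 and 10.79 in TC71 controls and 10.46, 10.52 and 10.49 with mithramycin, and fell by 0.35 ± 0.06 (1.27-fold, adjusted p = 6.10e-04). Its TC32 values went from 10.85, 10.89 and 10.80 to 10.69, 10.69 and 10.63, or -0.18 ± 0.06, again without overlap. With arrays centred on hybridization controls the TC71 call of DNMT1 ended (-0.28, adjusted p = 0.0864, against 1.17e-07 to 0.0864 over the alternatives).

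The de novo methyltransferases were not called in TC71. DNMT3A at its brightest set (222640_at) read 7.69, 7.57 and 7.64 in controls and 7.76, 7.50 and 7.62 with mithramycin, a difference of -0.005 ± 0.08 (limma adjusted p = 0.974). Its other sets stood at -0.15 ± 0.08 (218457_s_at) and -0.09 ± 0.09 (244428_at, below the array medians in all groups), with adjusted p of 0.17 and 0.482. In TC32 the 3 sets lay between -0.20 ± 0.08 and 0.02 ± 0.08, and at 222640_at alone the treated arrays (7.17, 7.19 and 7.11) were all below the controls (7.27, 7.43 and 7.36). DNMT3B (220668_s_at) went from 6.96, 6.88 and 6.82 to 6.71, 6.74 and 6.78 in TC71. These groups did not overlap, but the difference of -0.14 ± 0.07 did not pass the test (adjusted p = 0.14), except among sets with a mean of at least 6 (adjusted p = 0.0359, range over the alternatives 0.0359 to 0.649). In TC32 it stood at -0.09 ± 0.07 with overlapping groups.

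TDG, which excises some of the oxidized bases that TET enzymes make, was lower mainly in TC32. Its brightest set (203743_s_at) went from 9.66, 9.70 and 9.62 to 8.63, 8.73 and 8.63 there, a difference of -0.999 ± 0.06. In TC71 it went from 9.90, 10.02 and 9.93 to 9.70, 9.64 and 9.58 and fell by 0.31 ± 0.06 (1.24-fold, adjusted p = 2.45e-03) without overlap. The TC71 call ended with hybridization control centring (adjusted p = 0.142) and with the mean of both TDG sets (-0.12, adjusted p = 0.074; range over the alternatives 1.79e-05 to 0.142). The second set (203742_s_at) stood at -0.44 ± 0.07 in TC32, and at 0.07 ± 0.07 in TC71, where its groups overlapped (adjusted p = 0.492).

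MBD4 was the gene of the group that rose. In TC71 all 4 sets were called higher, by 0.52 ± 0.06 at the brightest (209579_s_at, adjusted p = 1.73e-05), 0.44 ± 0.08 (214047_s_at, 1.08e-03), 0.43 ± 0.10 (209580_s_at, 6.07e-03) and 0.88 ± 0.07 (214048_at, 6.26e-07). The brightest set read 9.76, 9.69 and 9.75 in TC71 controls and 10.30, 10.23 and 10.23 with mithramycin. At 214048_at the controls read 6.75, 6.93 and 6.82 and the treated arrays 7.73, 7.68 and 7.75, a 1.85-fold rise. The groups did not overlap at any of the 4 sets. In TC32 the brightest set stood at 0.30 ± 0.06 (9.14, 9.19 and 9.15 against 9.49, 9.46 and 9.44) and 214048_at at 0.44 ± 0.07, each without overlap. The other 2 TC32 values were -0.03 ± 0.08 and -0.08 ± 0.10, and their groups overlapped. Sets 214047_s_at and 214048_at are annotated to the same source sequence, so they are not independent readings. With the beta-actin value added to the model the call at 209580_s_at ended (0.35, adjusted p = 0.134, range over the alternatives 3.84e-04 to 0.134).

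**Figure D3:**
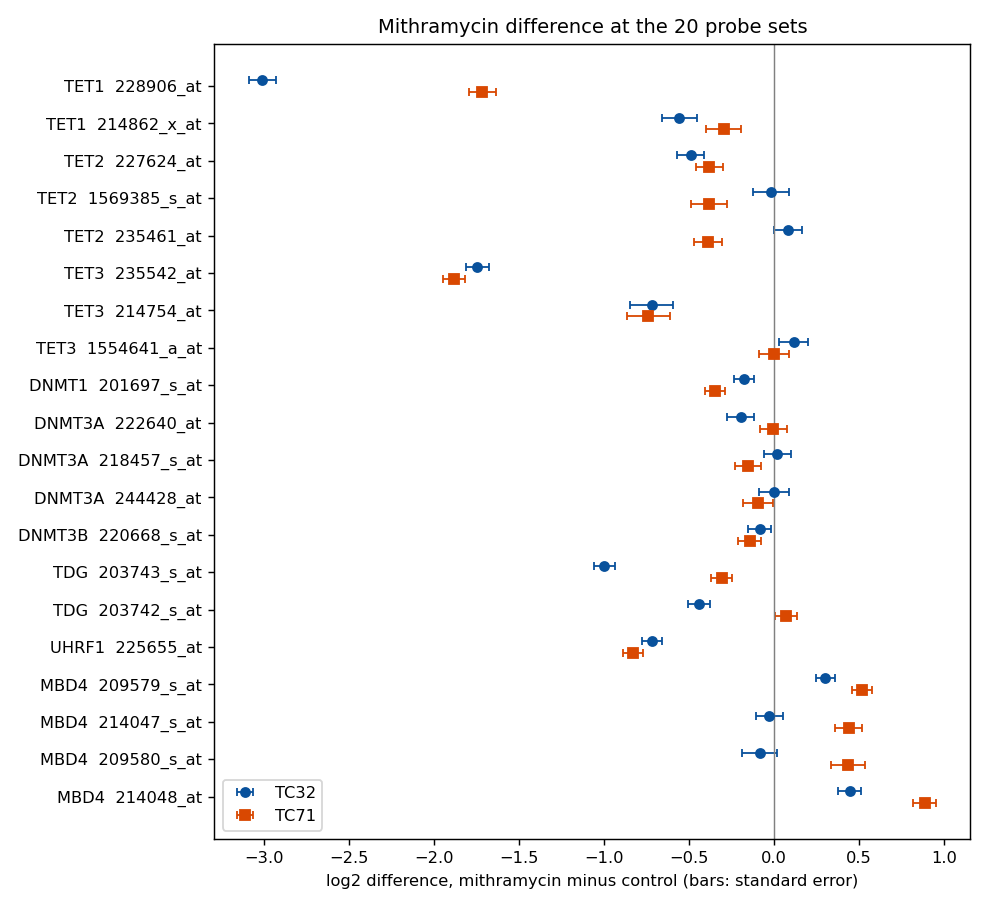
Log2 difference of mithramycin minus control (x axis) at the 20 probe sets (y axis), with circles for TC32, squares for TC71 and bars for the standard error of the model (n = 3 arrays per group). TET1, TET3 and UHRF1 lie left of 0 in each line at their brightest sets, the TDG sets lie further left in TC32 than in TC71, and the MBD4 sets in TC71 lie right of 0.

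Counted over sets in TC71, 10 of the 20 were called lower and 4 higher, and 6 were not called. Across all probe sets tested 13.7% were called lower and 14.5% higher. The treated arrays were all below the controls at 11 sets and all above them at 4, where 18.7% and 26.4% of all sets had groups apart in those directions. At least 2-fold lower were 2 sets, of TET1 and TET3, beside 2.15% of all sets. The median difference of the 20 sets was -0.23, against 0.05 for all sets. By gene at the brightest set, 6 of the 9 genes were lower (TET1, TET2, TET3, DNMT1, TDG and UHRF1), 1 was higher (MBD4) and 2 were not called (DNMT3A and DNMT3B), beside 15.3% lower and 17% higher among all genes at theirs. Sets of 1 gene share a transcript and the genes were chosen with earlier results in view, so these counts describe the group and do not set it apart. Without TC71 control replicate 1, 9 sets were called lower and 4 higher, beside 12.5% and 11.6% of all sets. With hybridization control centring 4 remained lower, at TET1, TET3 (2 sets) and UHRF1, beside 9.32% of all sets.

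In TC32 the treated arrays were all below the controls at 10 of the 20 sets, all above them at 2 and overlapping at 8. Over the array the groups did not overlap, treated lower, at 19% of sets and, treated higher, at 25.7%. The median difference was -0.13, against 0.06 for all sets. At least 2-fold lower were 2 sets, those of TET1 and TET3, beside 3.1% of all sets, with the TDG set just short of that size. That TDG set passed it without TC32 mithramycin replicate 2 or TC32 control replicate 3, and with housekeeping centring (-1.04), hybridization control centring (-1.20) or the beta-actin term (-1.01), giving 3 sets each time. Nothing is read from these TC32 shares, since that contrast served to choose the genes.

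In the absence of the drug, most of the group was higher in TC71 than in TC32. Leaving out TET1, whose TC32 controls also enter the contrast that chose it, 14 of 18 sets were called higher in TC71 controls, 1 lower and 3 were not called, where 20.7% of all probe sets were called higher and 21.9% lower. TET3 was higher by 0.76 ± 0.07 at 235542_at (1.69-fold, limma adjusted p = 4.95e-07), TET2 by 0.60 ± 0.08 at 227624_at (1.52-fold, adjusted p = 2.88e-05) and MBD4 by 0.57 ± 0.06 at 209579_s_at (1.49-fold, adjusted p = 2.00e-06). The other MBD4 sets were higher by 0.43 to 0.72. TET1 stood higher by 0.34 ± 0.08 at its brightest set and by 1.11 ± 0.10 at 214862_x_at, values given without a test. UHRF1 was the gene lower in TC71, by 0.44 ± 0.06 (1.35-fold, adjusted p = 3.37e-05), while DNMT1 stood at -0.007 ± 0.06 (adjusted p = 0.938).

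The methyltransferases DNMT3A and DNMT3B were also higher in TC71 controls, at all 3 DNMT3A sets by 0.28 to 0.33 (adjusted p from 3.19e-03 to 0.0102) and at DNMT3B by 0.38 ± 0.07 (adjusted p = 4.14e-04). TDG was higher by 0.29 ± 0.06 at 203743_s_at (adjusted p = 2.01e-03) and not called at 203742_s_at (0.12 ± 0.07, adjusted p = 0.171). Several choices moved these calls. With the beta-actin value added to the model 8 of the 18 sets were called higher, beside 16.1% of all sets. The DNMT3A and DNMT3B calls were among those that ended (limma adjusted p from 0.0576 to 0.256). With arrays centred on housekeeping genes, which raised the median difference of all sets from -0.04 to 0.27, the UHRF1 call ended (-0.13, adjusted p = 0.113) and DNMT1 was called higher in TC71 by 0.30 (adjusted p = 1.50e-03). That centring called 17 of the 18 sets higher and 0 lower, beside 55.8% and 10.5% of all sets. Without TC71 control replicate 1, 14 sets were called higher and 1 lower, beside 19.8% of all sets in each direction. Among sets with a mean of at least 6, TDG 203742_s_at was called higher (adjusted p = 0.0499). Without TC32 control replicate 2, or without TC71 control replicate 3, the calls at TET2 235461_at (adjusted p = 0.0855 and 0.0904) and TET3 214754_at (adjusted p = 0.0516 and 0.0513) ended.

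**Figure D4:**
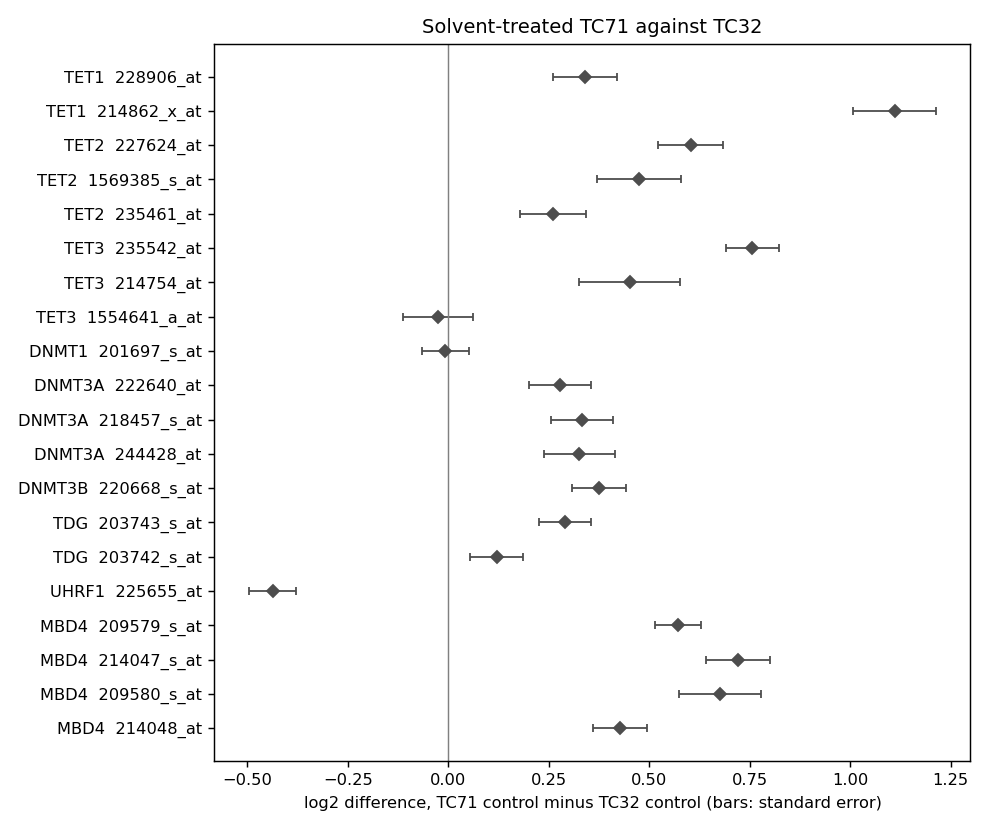
Log2 difference of TC71 control minus TC32 control (x axis) at the 20 probe sets (y axis), with bars for the standard error of the model (n = 3 arrays per group). UHRF1 lies to the left at -0.44, DNMT1 and 1 TET3 set lie near 0 at -0.007 and -0.03, and the other sets lie to the right, up to 1.11 at a TET1 set.

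Related genes were followed on 6 lists at the brightest set of each gene. Together they held 63 measured genes, of which 11 were called lower in TC71, 14 higher and 38 not called, with a median of 0.03 against 0.07 for all genes. Over all genes 15.3% were called lower and 17% higher, which are the shares to set beside each count that follows. Of 7 measured readers of methylated DNA, 3 fell and 1 rose in TC71 (median -0.17). ZBTB4, a zinc finger protein that binds methylated CpG, fell by 0.68 ± 0.09 (limma adjusted p = 9.86e-05) and the reader MBD1 fell by 0.37 ± 0.06 (6.36e-04), although the MBD1 sets ran from -0.40 to 0.24. The reader ZBTB33 rose by 0.31 ± 0.06 (2.12e-03). In TC32 5 of the 7 lay below their controls on every array, where 20.8% of genes did, and the median was -0.23.

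Among 9 partners of methylation maintenance and silencing, 4 fell and 1 rose in TC71 (median -0.03). USP7, the deubiquitinase that binds UHRF1 and DNMT1, fell by 0.84 ± 0.06 (adjusted p = 4.95e-07), the histone methyltransferase SETDB1 fell by 0.81 ± 0.08 (8.79e-06, with its other set at 0.07), and the chromatin remodeller HELLS fell by 0.37 ± 0.12 (0.0353). The 4 USP7 sets ran from -0.84 to -0.16 and the 5 HELLS sets from -0.38 to 0.07. In TC32 USP7 stood at -0.98 ± 0.06, SETDB1 at -1.04 ± 0.08 and HELLS at 0.02 ± 0.12. Of this list 3 genes lay below and 3 above their TC32 controls on every array, against 20.8% and 30% of all genes.

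Of 7 TET partners and enzymes of cofactor supply, 1 fell and 3 rose in TC71 (median 0.09). CXXC5, a zinc finger protein that binds unmethylated CpG, fell by 1.30 ± 0.08 (adjusted p = 5.35e-08), and its relative CXXC4 rose by 0.54 ± 0.09 (4.64e-04). IDH2, which makes the ketoglutarate that TET enzymes use, rose by 0.39 ± 0.06 (3.57e-04).

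Of 14 base excision repair and associated genes, 1 fell and 5 rose in TC71 (median 0.06). GADD45B, a stress-induced gene linked to demethylation, rose by 1.41 ± 0.09 (adjusted p = 1.70e-07, its 4 sets between 0.34 and 1.41) and GADD45A by 0.70 ± 0.06 (1.97e-06), while the glycosylase NEIL2 rose by 0.29 ± 0.09 (0.0231). The 1 gene that fell, named after its value was seen, was the glycosylase NEIL3 (-0.26 ± 0.08, adjusted p = 0.0286). In TC32 GADD45B stood at 1.08 and GADD45A at -0.09. Of 6 genes of the S-adenosylmethionine cycle, which supplies the methyl group, 1 fell and 2 rose in TC71 (median 0.06). The methionine synthase gene MTR fell by 0.69 ± 0.09 (9.70e-05), whereas SHMT2 and AHCY each rose by 0.20 ± 0.06 (0.0238 and 0.0179).

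The transcripts of UHRF1 and DNMT1 vary with the cell cycle, so G1/S and proliferation genes were set beside them. Whether the cell cycle had a part in the UHRF1 and DNMT1 values was not tested. Of 20 such genes 1 fell, 2 rose and 17 were not called in TC71, with a median of 0.03. MKI67 rose by 0.50 ± 0.07 (adjusted p = 1.56e-04, its 4 sets between -0.19 and 0.65), CCNE1 rose by 0.22 ± 0.06 (0.0123) and E2F2 fell by 0.37 ± 0.07 (1.04e-03). Their TC32 values were 0.12 for MKI67, 0.32 for CCNE1 and -0.68 for E2F2. In TC32 6 of the 20 lay below and 6 above their controls on every array, against 20.8% and 30% of all genes, and the median was -0.01. The mean signal of the list ran from 9.46 to 9.48 in TC71 controls and from 9.49 to 9.51 with mithramycin. Of 4 fibroblast markers 3 rose in TC71, and their mean signal ran from 7.20 to 7.31 in controls and from 7.66 to 7.85 with mithramycin, against 5.99 to 6.07 and 5.97 to 6.03 in TC32. The part of that shift in the TC71 values was not tested.

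**Figure D5:**
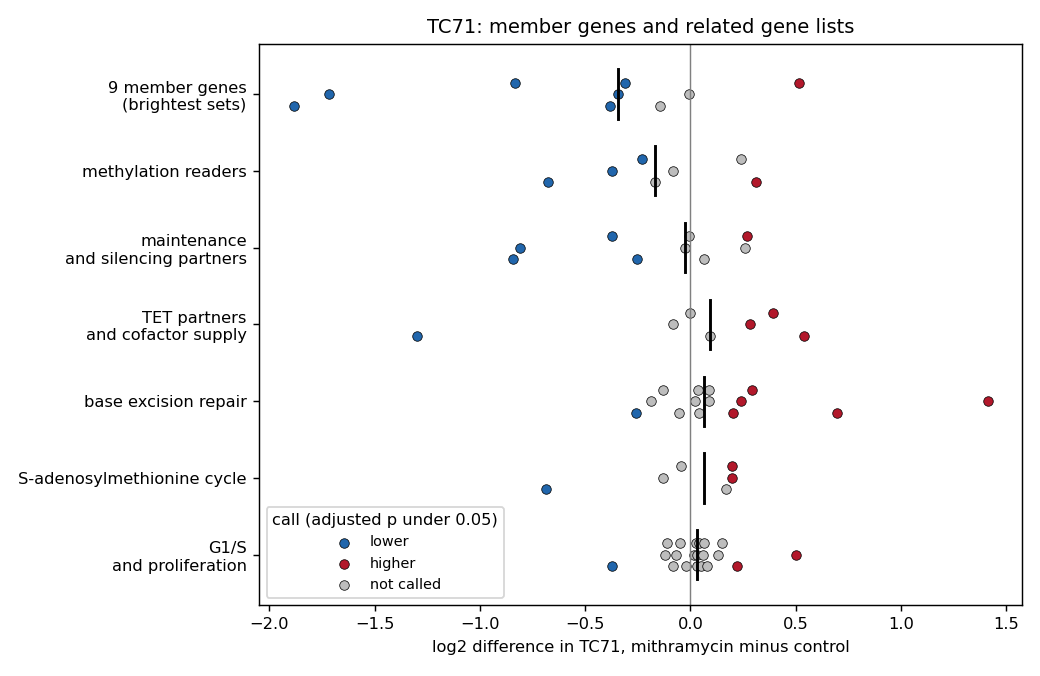
Log2 difference of mithramycin minus control in TC71 (x axis) for the 9 genes at their brightest sets and for the genes of 6 related lists (y axis), with 1 point per gene coloured by its limma call and a black line at each median. TET3 and TET1 lie furthest left at -1.88 and -1.72, and most G1/S genes lie near 0 without a call.

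The genes whose pattern over the 12 arrays was most like that of TET1 at its brightest set were TRMT61B (Pearson r = 0.996), WAC (0.995), ZNF764 (0.994), RIOK1 (0.994) and EPC1 (0.993). They were drawn from 3723 genes with an SD of at least 0.5 over the arrays. The arrays hold 4 groups, so these correlations mostly reflect the order of 4 group means. In TC71 the 5 genes stood at -1.04 ± 0.07, -0.90 ± 0.06, -1.59 ± 0.07, -0.64 ± 0.07 and -1.15 ± 0.06 in that order, beside -1.72 ± 0.08 for TET1. In TC32 they stood at -1.75, -1.56, -2.63, -1.07 and -1.68, beside -3.01.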

How the data were processed

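RNA of 12 cultures was measured on 1-colour arrays. The authors deposited log2 values, 1 for each probe set on each array, made with RMA per the submitters' processing notes, which name no version or settings. RMA forces 1 probe distribution on every array, so a shift shared by most genes is largely removed. Detection calls were not used here.

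Of 54675 probe sets 62 controls were set aside, and 54613 entered 1 limma 3.58.1 model (R 4.3.3) with a mean per group. Adjusted p-values are two-sided, by Benjamini-Hochberg over all 54613 sets, and a set was called under 0.05. Symbols come from the platform annotation, updated through Entrez identifiers, with 41091 sets naming 1 gene, 1801 several and 11721 unnamed here. The text names every set of the 9 genes, and of each list up to 3 called genes with the largest TC71 difference. The members and lists were chosen with earlier results of these data known. The fit was tested on simulated data with independent noise and added differences in TC71, without a line difference or an RNA quality shift. The calls draw no support from it. Alternatives covered normalization, filters, probe set choice, a beta-actin term, the replicate block and leaving out each array.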

Additional observations from a re-analysis of the deposited data

Results flagged for a closer look

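A pair of probe sets stood out because every treated array moved one way in TC32 and the other way in TC71, relative to the mean of its controls. TET2 at 235461_at stood at 0.08 in TC32 and -0.39 in TC71, a difference of -0.47 between the responses. TDG at 203742_s_at stood at -0.44 in TC32 and 0.07 in TC71, a difference of 0.51. The standard errors of the small values are as large as the values (0.08 ± 0.08 for TET2 in TC32, 0.07 ± 0.07 for TDG in TC71). With hybridization control centring TET2 at 235461_at stood at -0.12 in TC32, the same direction as in TC71. The difference between the lines was not tested for either set.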

How the results depend on the processing

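Of 801 values recomputed for single sets in TC71 or between untreated lines, 764 stayed on their side of the threshold and 32 lost a call. A call was gained by 3 with the same sign, and by 2 that were not called before and changed sign. Some of the 764 lay near 0 without a call and changed sign, such as DNMT3A 222640_at in TC71, which ran from -0.08 to 0.06. Both gains with a change of sign came with housekeeping centring (10 of 12 listed genes measured), between untreated lines. DNMT1 moved from -0.007 to 0.30 and TET3 1554641_a_at from -0.03 to 0.28. That centring called 0 of the 18 sets lower, and 55.8% of all sets higher and 10.5% lower, so higher sets made up 84.2% of the calls against 48.6%. Hybridization control centring left 4 sets lower in TC71, beside 9.32% of all sets. Between untreated lines it called 14 of the 18 sets higher and 1 lower, beside 21.9% and 13.5% of all sets. Higher sets then made up 61.9% of the calls. It also moved the TC32 median of all sets from 0.06 to -0.14. Single-set values in TC32, which had no test, moved by at least their SD within groups in 36 cases and by less in 385. TET2 227624_at there ran from -0.69 with hybridization control centring to -0.14 with the mean of the gene's sets. DNMT3B ran from -0.29 with that centring to 0.06 with quantile normalization again. With the beta-actin covariate 9 of the 20 sets were lower and 3 higher in TC71, beside 10% and 7.34% of all sets. Between untreated lines 8 of the 18 sets were higher and 1 lower, beside 16.1% and 14.4% of all sets.

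Other settings changed which sets entered or how they were combined. With a mean of at least 6 (13 sets) 6 were lower and 4 higher in TC71, beside 29.9% and 32.3% of all sets that passed. Between untreated lines 11 were higher and 1 lower, beside 41.5% and 38%. In TC32 1 was at least 2-fold lower. With the brightest set of each gene fitted alone, 6 of 9 genes were lower and 1 higher in TC71, beside 16.1% and 19.4% of all genes. Between untreated lines 6 of 8 were higher and 1 lower, beside 26.7% and 24.8%. With the mean of a gene's sets 5 of 9 were lower and 1 higher in TC71, beside 15% and 21.2%. Those means gave 6 of 8 higher and 1 lower between untreated lines, beside 26.1% and 25.9%. In TC32 they gave 1 gene at least 2-fold lower. Without _x_at and _s_at sets 6 of 10 were lower and 1 higher in TC71, beside 12.7% and 12.9% of all such sets. Between untreated lines 7 of 9 were then higher and 1 lower, beside 18.8% and 19.5%.

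Leaving out each array in turn gave 8 to 10 sets lower and 4 higher in TC71, 12 to 14 higher and 1 lower between untreated lines, and 2 to 3 at least 2-fold lower in TC32. Of all sets 11.8% to 14.3% were then lower and 11.2% to 15.8% higher in TC71, and 19.5% to 22.7% and 19.2% to 21.3% between untreated lines.

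The replicate numbers were not treated as pairs. Deviations of same-numbered arrays correlated at -0.0865 to -0.0182 in TC71 and 0.0266 to 0.211 in TC32, and at 0.0417 to 0.115 between untreated lines, where each array correlated best with its own number. With the replicate block 9 sets were lower and 4 higher in TC71, beside 13.2% and 13.3% of all sets. Between untreated lines 14 of the 18 sets were then higher and 1 lower, beside 20.7% and 22%. The cause of these changes was not tested. The number of arrays, 3 a group, limits the precision.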
